A study of Mus musculus with 48 samples.

Results

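The 10 genes described here are markers of macrophages that store lipid and of macrophages that resemble osteoclasts, the cells that resorb bone. They are *Atp6v0d2*, *Dcstamp*, *Ctsk*, *Acp5*, *Trem2*, *Gpnmb*, *Cd68*, *Itgax*, *Lpl* and *Cd9*, 10 of the 46517 genes counted. They were chosen by name with their levels in the explants already in view, so their levels in the explants are given as a description, without a test. Tests are given for related genes outside the 10, and for the 10 genes in the groups that hold no explant. Earlier results of these data were known at the choice, so the p-values of the 10 genes are no independent evidence.

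Liver spheroids, small balls of primary liver cells enriched for hepatocytes, were engrafted on the iris in the anterior chamber of the eye (ACE) of mice, and RNA was sequenced from 5 explants taken 2 months after transplantation. Each explant is a pool of the engrafted tissue and the iris dissected with it. Naïve irises without a graft (3), livers of donor mice (3), isolated hepatocytes, here called hepatocyte preparations (3), and spheroids kept in vitro (2) were sequenced beside them. All 16 samples carry the genotype label WT Albino and the strain label C57BL/6N, no sample has a transgene or treatment label, and the methods give adult mice of both sexes on a chow diet, with no age per sample. Livers and hepatocyte preparations came from donor mice, and nothing in the labels ties a sample to an animal. Total counts ranged from 5449589 to 6789648 in explants and from 2718518 to 4881817 in the samples of the other groups.

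Macrophages that take up much lipid, in fatty liver, adipose tissue and atherosclerotic plaques, are known to switch on a set of genes that includes the lipid receptor *Trem2* and genes of the lysosome. Osteoclasts are large cells made when macrophages fuse, and they secrete acid and proteases onto bone. Kupffer cells, the resident macrophages of the liver, carry a marker set of their own, and the iris holds both macrophages and melanocytes. Levels are given in TPM, the share of transcripts scaled to a fixed total, which corrects for gene length. In RNA of whole tissue, fewer cells of a type and less RNA per cell cannot be told apart.

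The 10 genes did not share a single pattern. *Atp6v0d2*, *Trem2*, *Cd68* and *Acp5* were higher in each of the 5 explants than in each of the 3 irises, while *Gpnmb* and *Ctsk* were lower in each explant than in each iris. Of the 10, *Cd68* alone was higher in each explant than in each iris and each liver. Among 16764 genes with enough counts in explants and irises, 10.9% had their lowest explant above their highest iris, and 2.49% had it above the highest iris and the highest liver. The share with every explant below every iris is not given, so the place of *Gpnmb* and *Ctsk* is a description. *Acp5* was highest in livers and hepatocyte preparations, and *Gpnmb*, *Ctsk*, *Dcstamp* and *Lpl* were at 0.79 to 1.22 times the naïve iris level in the explants.

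**Figure D1:**
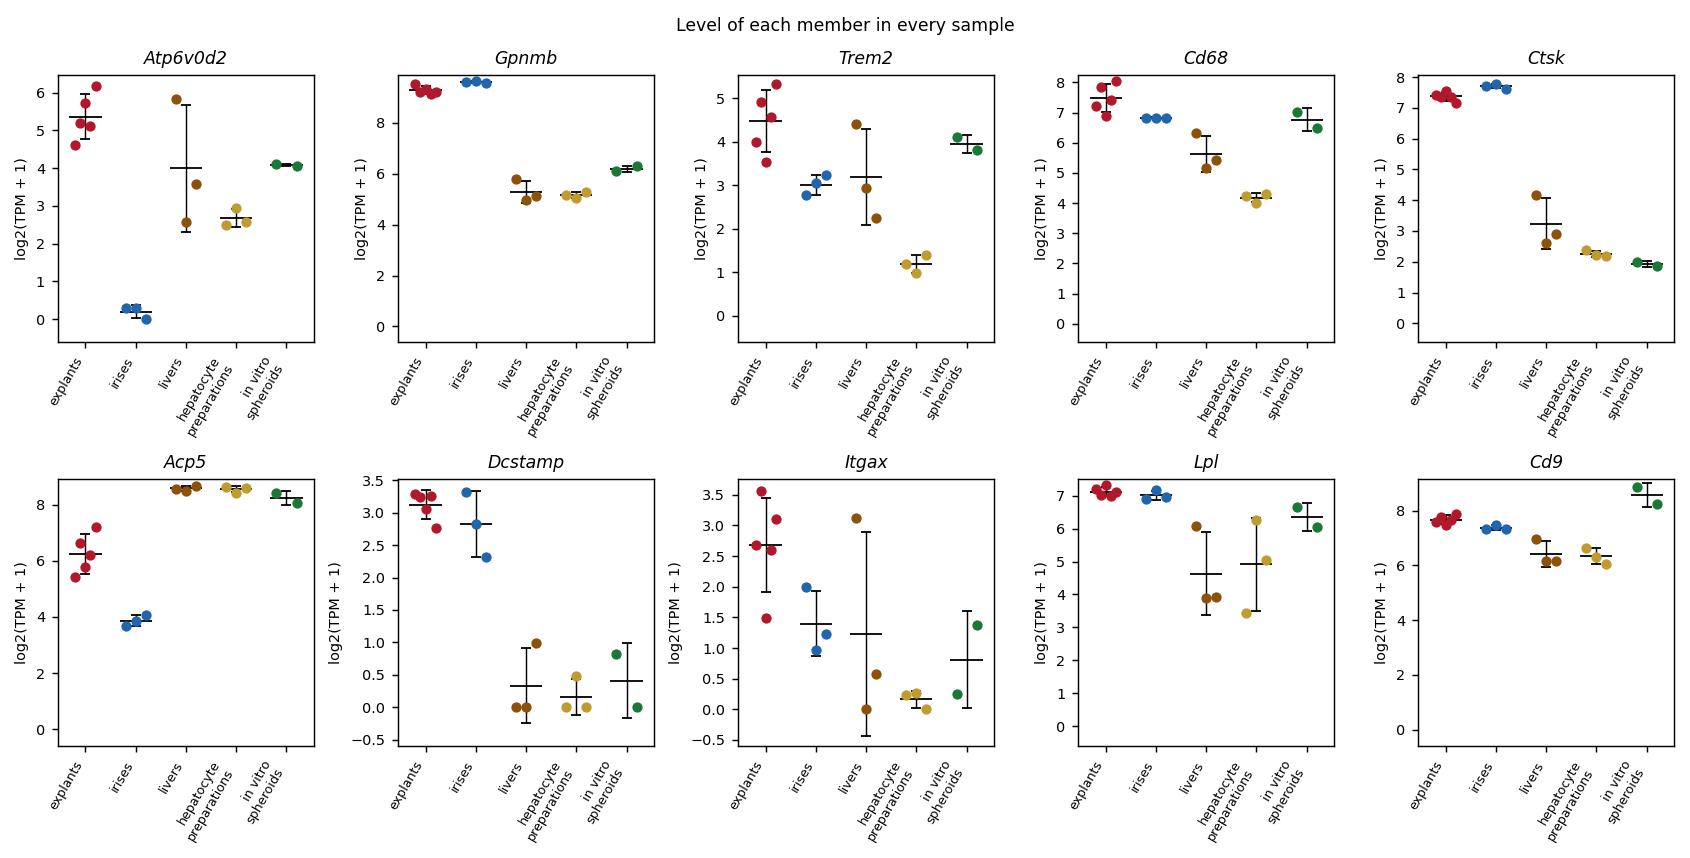
Level of each of the 10 genes in every sample, as log2(TPM + 1) on the vertical axis, with the 5 groups side by side on the horizontal axis. Each point is a sample, and the bar and whiskers are the mean and SD of the log values over 5 explants, 3 irises, 3 livers, 3 hepatocyte preparations and 2 in vitro spheroids. *Atp6v0d2* is near 0 in the irises, *Acp5* is highest in livers and hepatocyte preparations, and *Gpnmb* and *Ctsk* are as high in irises as in explants or higher.

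The genes of cell fusion and acid secretion differed most between explants and irises at *Atp6v0d2* (ENSMUSG00000028238, GRCm38 chromosome 4, 19876841 to 19922605, minus strand). It encodes the d2 subunit of the proton pump V-ATPase, which osteoclasts need in order to fuse. Its level was 23.6, 35.8, 51.9, 33.4 and 71.1 TPM in explants 1, 2, 4, 5 and 6, and 0.221, 0.236 and 0 TPM in the irises, where 2 reads were counted in all. Every explant stood far above every iris. The ratio of pooled CPM (counts scaled to a fixed library total), explants to irises, was 291 with a 95% interval from 80.3 to 2404 that covers counting error only. The livers were at 56.2, 4.92 and 10.9 TPM, the hepatocyte preparations at 4.64, 6.73 and 4.97, and the in vitro spheroids at 16.2 and 15.7. Liver 1 lay within the range of the explants, and the other 2 lay near the hepatocyte preparations. By mean level the order was explants (43.2 ± 18.6, SD, n = 5), livers (24 ± 28, SD, n = 3), in vitro spheroids (16 ± 0.374, SD, n = 2), hepatocyte preparations (5.45 ± 1.12, SD, n = 3) and irises (0.152 ± 0.132, SD, n = 3), with the livers overlapping the groups on either side.

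Liver 1 stood apart from livers 2 and 3 in more than this gene. Its level, over the mean of the others, was 7.09 for *Atp6v0d2*, 4.74 for *Lpl*, 3.87 for *Trem2* and 2.92 for *Ctsk*, but 0.987 for *Acp5*. The ratio of 31.7 for *Itgax* rests on 0 and 3 reads in livers 2 and 3. The summed TPM of 7 T and NK cell markers was 166 in liver 1 against 30 and 21.3, that of 7 fibroblast markers 1296 against 436 and 500, and that of 20 macrophage markers 1883 against 824 and 980. The sum of 7 Kupffer cell markers went the other way, at 224 in liver 1 against 314 and 427. The sum of 8 hepatocyte markers, at 10033 in liver 1 against 9484 and 9386, was close to the others. The part of these cells in the liver values was not tested, and some values against livers are given below without liver 1 as well.

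*Dcstamp* (ENSMUSG00000022303, chromosome 15, 39745932 to 39760934, plus strand) encodes the membrane protein DC-STAMP, which is needed for the fusion of osteoclasts and macrophage giant cells. It was at 8.74, 8.47, 7.34, 8.6 and 5.76 TPM in explants 1, 2, 4, 5 and 6 and at 9.03, 6.12 and 3.96 in the irises. These groups overlapped, with 24 to 40 reads per explant and 13 to 30 per iris. Livers held 0, 0 and 3 reads, hepatocyte preparations 0, 1 and 0, and in vitro spheroids 2 and 0, so that all 8 samples of liver cells were at or near the limit of what this depth can detect. Explants exceeded livers by a ratio of 19.7 (95% interval 6.63 to 96.6, counting error only).

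*Ctsk* (ENSMUSG00000028111, chromosome 3, 95499256 to 95509362, plus strand) encodes cathepsin K, the protease with which osteoclasts break down collagen and which fibroblasts also make. It was at 171, 162, 187, 164 and 142 TPM in explants 1, 2, 4, 5 and 6, below the 210, 219 and 197 TPM of the irises without overlap. The livers were at 17, 5.12 and 6.54 TPM, and hepatocyte preparations and in vitro spheroids at 2.66 to 4.17. The order was irises, explants, livers, hepatocyte preparations and in vitro spheroids, and no neighbouring groups in it overlapped. The summed level of 7 fibroblast markers ran from 2185 to 2485 TPM in irises, from 1768 to 2075 in explants and from 119 to 171 in hepatocyte preparations. The part of fibroblasts in the *Ctsk* level was not tested.

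*Acp5* (ENSMUSG00000001348, chromosome 9, 22126731 to 22135746, minus strand) encodes tartrate-resistant acid phosphatase, the enzyme used to stain osteoclasts. It was at 41.5, 97.7, 54.2, 72.8 and 147 TPM in explants 1, 2, 4, 5 and 6, above all irises (11.9, 13.5 and 15.8 TPM) and below all livers (379, 362 and 407 TPM). Hepatocyte preparations, at 400, 345 and 388 TPM, overlapped the livers, and the in vitro spheroids were at 340 and 264. In the irises *Acp5* was at 3.12% to 4.13% of its mean in livers, where 2 of 8 hepatocyte markers, *Cyp3a11* at 3.78% to 4.3% and *Fgb* at 4.06% to 4.69%, were at a like share, *Alb* and *Ttr* were at 16.9% to 26.7%, and the other 4 were at 0.647% to 1.41%. The exons of *Acp5* overlap those of 6530413G14Rik on the other strand in GENCODE M21, and counting ignored strand, so reads of the pair cannot be told apart.

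The genes linked to lipid-laden macrophages include *Trem2* (ENSMUSG00000023992, chromosome 17, 48346401 to 48354147, plus strand), a surface receptor that binds lipids and lipoproteins. It was at 15, 29.3, 10.6, 22.6 and 39.1 TPM in explants 1, 2, 4, 5 and 6 and at 5.82, 7.27 and 8.34 in the irises, without overlap. The livers were at 20.1, 6.69 and 3.73 TPM, the hepatocyte preparations at 1.27, 0.964 and 1.64, and the in vitro spheroids at 16.1 and 12.9. Only 3 explants exceeded the highest liver, liver 1, while all hepatocyte preparations were below every other sample. By mean level the order was explants, in vitro spheroids, livers, irises and hepatocyte preparations. Each of the first 3 steps in this order lay within the spread of the samples, since explants overlapped spheroids and livers overlapped spheroids and irises.

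*Cd68* (ENSMUSG00000018774, chromosome 11, 69664213 to 69666153, minus strand) encodes macrosialin, a glycoprotein of macrophage lysosomes. Its level was 147, 227, 117, 172 and 266 TPM in explants 1, 2, 4, 5 and 6 against 113, 113 and 111 TPM in the irises, so the lowest explant was only just above the irises. The livers, at 78.2, 34.7 and 42 TPM, and the hepatocyte preparations, at 15.2 to 18.6, were lower. The in vitro spheroids, at 130 and 89.6 TPM, overlapped the irises and the lower explants.

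*Itgax* (ENSMUSG00000030789, chromosome 7, 128129547 to 128150656, plus strand) encodes the integrin chain CD11c, which is carried by dendritic cells and by macrophages of inflamed fat. It was at 5.38, 10.8, 1.81, 5.08 and 7.56 TPM in explants 1, 2, 4, 5 and 6. Only explant 4, with 15 reads, lay within the range of the irises, which were at 2.97, 0.952 and 1.35 TPM. Livers were at 7.75, 0 and 0.489 TPM, hepatocyte preparations at 0.173, 0.196 and 0, and in vitro spheroids at 0.188 and 1.59. The summed level of 9 dendritic cell markers was 23.9 to 51.8 TPM in explants and 20 to 43.8 in irises, and none of the 6 that could be tested was called between these groups by edgeR, DESeq2 or limma-voom, with 4 higher in explants at an unadjusted p under 0.05 in edgeR.

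The promoters of *Cd68*, *Trem2* and *Itgax* are shown because they hold the letters of an AP-1 site, and were chosen once that match was seen. They are RefSeq sequences in build GRCm38.p6, the 250 bases before the annotated start on the strand of the gene, and the capitals mark GAGGAA, the core of sites for the macrophage factor PU.1, and TGANTCA, the site of AP-1 factors, searched on both strands, so that TTCCTC marks the first motif on the other strand.
Cd68 promoter, chr11:69666171-69666420, minus strand: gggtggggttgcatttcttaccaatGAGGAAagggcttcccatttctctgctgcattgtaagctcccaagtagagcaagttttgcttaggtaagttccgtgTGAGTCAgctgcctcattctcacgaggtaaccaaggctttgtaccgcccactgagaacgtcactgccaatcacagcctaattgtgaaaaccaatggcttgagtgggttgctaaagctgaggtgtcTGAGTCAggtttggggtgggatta
Trem2 promoter, chr17:48346151-48346400, plus strand: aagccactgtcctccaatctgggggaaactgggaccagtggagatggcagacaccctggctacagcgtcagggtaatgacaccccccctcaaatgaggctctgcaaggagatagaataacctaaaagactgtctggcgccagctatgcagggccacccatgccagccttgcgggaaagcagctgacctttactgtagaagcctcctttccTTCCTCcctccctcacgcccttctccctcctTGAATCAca
Itgax promoter, chr7:128129300-128129549, plus strand: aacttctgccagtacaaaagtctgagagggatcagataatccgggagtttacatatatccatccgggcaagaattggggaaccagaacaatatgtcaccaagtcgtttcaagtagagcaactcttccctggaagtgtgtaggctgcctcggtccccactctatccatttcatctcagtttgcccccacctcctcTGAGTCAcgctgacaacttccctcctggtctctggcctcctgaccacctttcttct
The AP-1 letters stood 149 and 24 bases before the start of *Cd68*, 9 before that of *Trem2* and 56 before that of *Itgax*, counted to the first base of the site. They were found in 3 of the 7 genes of the set that have a promoter in the table and in 6.75% of the 32851 promoters of the table. The PU.1 letters were found in *Cd68*, *Trem2* and *Ctsk* and in 23.3% of all promoters. Of the letters bound by the MiT factors, which drive lysosomal genes in melanocytes and osteoclasts, TCACGTG was in none of the 7 and in 3.13% of all promoters, and TCATGTG was in 1 of the 3 *Acp5* promoters and in 3.25% of all. No promoter was found in the table for *Atp6v0d2*, *Dcstamp* and *Lpl*. A match is a description of the letters and not evidence of a bound site.

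*Gpnmb* (ENSMUSG00000029816, chromosome 6, 49036546 to 49070929, plus strand) encodes a glycoprotein of lysosomes and melanosomes, made by macrophages, osteoclasts and melanocytes. It was by far the most abundant of the 10 and took 35.9% to 49.2% of their summed TPM in an explant. Its level was 728, 591, 647, 553 and 589 TPM in explants 1, 2, 4, 5 and 6 and 779, 801 and 750 TPM in the irises, so every explant lay below every iris. Livers were at 54, 30.4 and 33.4 TPM, hepatocyte preparations at 34.8, 31.8 and 37.4, and in vitro spheroids at 68.2 and 76.7. The summed level of 7 melanocyte markers was 9957 to 10425 TPM in irises, 7087 to 9044 in explants and 454 to 612 in the 8 samples of liver cells.

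*Gpnmb* was thus at 3.91% to 6.95% of its iris mean in livers and 4.1% to 4.82% in hepatocyte preparations, and the melanocyte markers *Mlana*, *Pmel*, *Dct* and *Tyrp1*, which liver cells are not known to make, were at 3.91% to 8.71% and 4.06% to 8.93% there. The melanocyte markers *Tyr*, *Oca2* and *Slc45a2* were at 0.799% to 2.13%. In the in vitro spheroids *Gpnmb* was at 8.77% to 9.88% of its iris mean, where those 4 markers were at 3.23% to 7.53%. The part that signal from iris libraries might have in the liver values of *Gpnmb* was not tested.

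*Lpl* (ENSMUSG00000015568, chromosome 8, 68880491 to 68907448, plus strand) encodes lipoprotein lipase, which frees fatty acids from the triglycerides of lipoproteins. Explants, at 146, 128, 158, 125 and 137 TPM, overlapped the irises, at 119, 142 and 123. All explants were above livers (66.6, 13.9 and 14.2 TPM), hepatocyte preparations (9.87, 76 and 31.7) and in vitro spheroids (99 and 65.8). Livers and hepatocyte preparations overlapped over a wide spread.

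*Cd9* (ENSMUSG00000030342, chromosome 6, 125460266 to 125494791, minus strand) encodes a tetraspanin, a membrane protein of many cell types that is also used as a marker of scar-associated and lipid-associated macrophages. It was highest in the in vitro spheroids, at 471 and 305 TPM, ahead of explants at 192, 217, 177, 201 and 236. Irises were at 160, 177 and 161 TPM and overlapped the lowest explant to the rounding, livers were at 125, 69.9 and 71, and hepatocyte preparations were at 99.7, 78.9 and 66. Its exons overlap those of Gm26728 on the other strand, which was at 58.3 and 84.1 TPM in the in vitro spheroids, 30.3 to 45.3 in explants, 39.6 to 48.2 in irises and 10.9 to 29 in livers, and reads of this pair cannot be told apart either.

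Across the 5 explants the 10 genes fell into several orders. *Trem2*, *Cd68*, *Acp5*, *Itgax* and *Cd9* had their highest levels in explants 6 and 2, and *Gpnmb*, *Ctsk*, *Dcstamp* and *Lpl* had theirs among explants 1, 4 and 5. The share of iris RNA, solved from the tables the authors deposited before and after they subtracted it, was lowest in explants 6 (59%), 2 (68%) and 5 (72%) and highest in 4 (81%) and 1 (82%). The summed TPM of 20 pan-macrophage markers ran from 4514 (explant 6) through 3613 (2), 2398 (5) and 1991 (1) to 1535 (4), a range of 2.94-fold. *Trem2* (3.7-fold from lowest to highest), *Cd68* (2.27-fold) and *Cd9* (1.34-fold) had exactly this order. The sum of 10 partners and relatives of lipoprotein lipase, several of them known products of hepatocytes, had it too (2090, 1711, 1270, 825 and 760 TPM). The order of the hepatocyte markers differed from it only in explants 4 and 1. Macrophage and hepatocyte content cannot be told apart by this order.

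*Acp5* ran in the order 6, 2, 5, 4, 1 over a 3.53-fold range, which was also the order of the summed hepatocyte markers (5307, 4856, 3925, 3789 and 3770 TPM). *Gpnmb* ran in the order 1, 4, 2, 6, 5, that of the summed melanocyte markers (9044, 8205, 7579, 7185 and 7087 TPM). *Atp6v0d2* had neither order. It was highest in explant 6 but next highest in explant 4, which had the lowest macrophage sum of the 5. On the log2(TPM + 1) scale *Atp6v0d2* was 0.69 above the mean of the pan-macrophage markers in explant 4, and in explants 1, 2, 5 and 6 it was below that mean, at -0.71, -1.13, -0.47 and -0.46. With 5 explants these orders are a description.

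**Figure D2:**
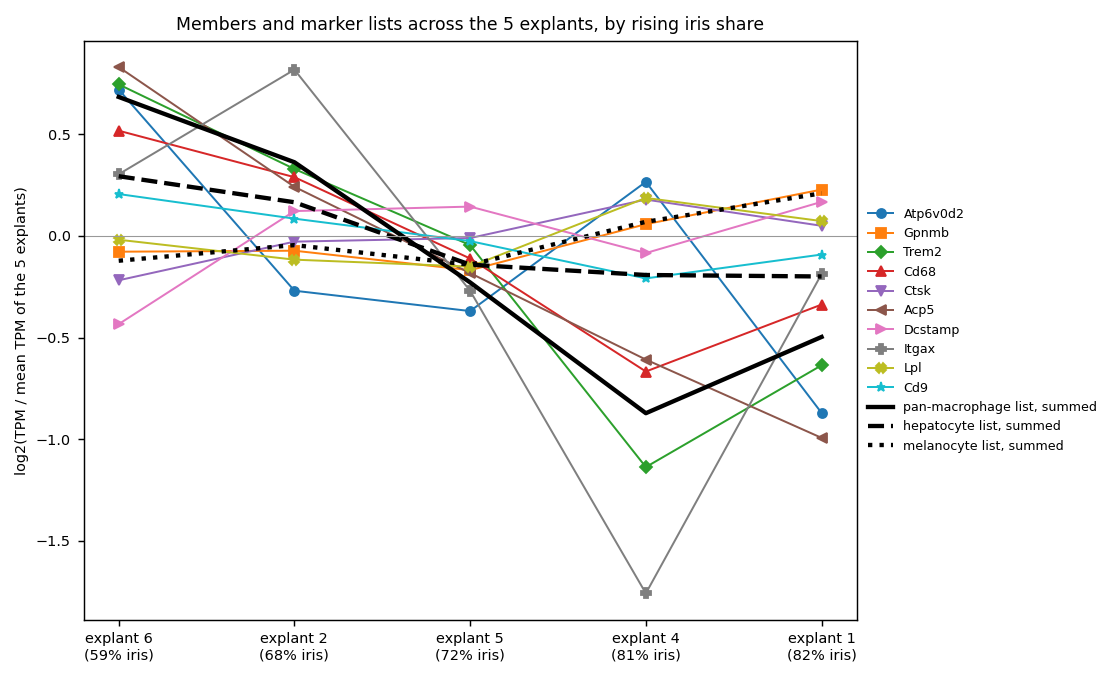
Level of each of the 10 genes in the 5 explants (horizontal axis, arranged by iris share) as log2 of its TPM over its own mean in the explants (vertical axis), with the summed pan-macrophage, hepatocyte and melanocyte markers as black lines. *Trem2* and *Cd68* follow the macrophage line, which is highest in explants 6 and 2, *Gpnmb* follows the melanocyte line, and *Atp6v0d2* has a second high value in explant 4.

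To ask whether other genes of these pathways also stood out in the explants, 131 related genes in 11 lists were tested with edgeR. A gene was called where its p after Benjamini-Hochberg adjustment was below 0.05 and its log2 fold change was beyond 1 in either direction. Of the 115 that passed the filter on low counts against irises, 26 were called higher in explants (22.6%) and 0 lower, where 6.16% of all 16764 genes were called higher and 0.316% lower. At an unadjusted p under 0.05, 54 of the related genes were higher and 11 lower, DESeq2 called 36 higher and 0 lower, and limma-voom called 7 and 0. The count fell to 6, 9 and 7 without iris 1, 2 or 3 and to 16 without explant 2. The share of all genes called higher also moved, to 7.27% with DESeq2 and 3.23% with limma-voom. It was 3.21%, 3.5% and 3.34% without iris 1, 2 or 3 and 4.95% without explant 2. The median log2 fold change of the related genes was 0.23 and that of all genes 0.01. The lists were chosen with results of these data known, so that these shares are no independent evidence of direction.

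Of 20 pan-macrophage markers 10 rose and none fell in edgeR. They include *Itgb2*, the chain that pairs with the product of *Itgax* (adjusted p = 0.0352 in edgeR), *Itgam* (log2 fold change 1.92, SE 0.42, edgeR adjusted p = 0.0189) and *Adgre1*, the gene of the macrophage marker F4/80 (2.22, SE 0.52, adjusted p = 0.0248). *Ctss*, a lysosomal protease of antigen-presenting cells, rose by 1.79 (SE 0.35, adjusted p = 0.0116), and *Lyz2*, lysozyme, by 1.33 (SE 0.26, adjusted p = 0.0118). DESeq2 called 15 of these 20 and limma-voom 2. The summed level of 7 T and NK cell markers, 16 to 228 TPM in explants and 7.12 to 13 in irises, was also highest in explants 6 and 2, and its part in these values was not tested. Single genes of 4 other lists were called higher as well, *Il4ra*, a chain of the IL-4 receptor (1.81, SE 0.35, edgeR adjusted p = 0.0109), the tetraspanin gene *Cd53* (1.54, SE 0.39, adjusted p = 0.0314), *Ms4a7* (1.75, SE 0.44, adjusted p = 0.0314) and *Cd5l*, a protein secreted by Kupffer cells (5.10, SE 1.06, adjusted p = 0.0148). The value of *Cd5l* rests on 0.295 to 0.315 TPM in irises, near the limit of detection. Only 2 of the 7 Kupffer cell markers could be tested against irises.

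Of 19 genes of lipid handling that were tested, 5 rose in edgeR, and DESeq2 called 6 and limma-voom 2. They were *Cd36*, a fatty acid and oxidized LDL receptor that hepatocytes also make (3.08, SE 0.49, edgeR adjusted p = 0.0044), *Nr1h3*, the LXRα gene (1.44, SE 0.31, adjusted p = 0.0178), *Abca1*, a cholesterol exporter (1.09, SE 0.21, adjusted p = 0.0106), *Clec7a*, a receptor for fungal glucans (1.91, SE 0.39, adjusted p = 0.0142), and *Mmp12*, the macrophage elastase (2.00, SE 0.48, adjusted p = 0.0274). The 8 hepatocyte markers were called higher in the same comparison, and mean levels of *Nr1h3* were 27.2 TPM in irises, 203 in livers and 222 in hepatocyte preparations, and those of *Abca1* 13, 44.8 and 40.3 TPM. The part of hepatocytes in these calls was not tested. *Spp1*, osteopontin, which is a leading gene of lipid-associated macrophages, was not called, with means of 892 ± 63 TPM over the 5 explants and 956 ± 54.7 TPM over the 3 irises (SD).

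Among the partners and relatives of lipoprotein lipase, *Apoc2*, *Angptl8*, *Apoc3*, *Apoa5*, *Lipc* and *Gpihbp1* rose. The products of *Apoc2*, *Angptl8*, *Apoc3*, *Apoa5* and *Lipc* are known to be secreted by hepatocytes, and *Gpihbp1* anchors the lipase to capillaries. The part of hepatocytes was not tested here either. These 6 genes were all called lower in explants than in livers, as were the 8 hepatocyte markers.

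No gene of the osteoclast programme (10 of 15 tested), of the lysosome (15 of 15), of the other V-ATPase subunits (16 of 16) or of the MiT factors (4 of 4) was called between explants and irises by edgeR, DESeq2 or limma-voom. At an unadjusted p under 0.05 in edgeR, 2 osteoclast genes, 2 lysosomal genes and 1 MiT gene were higher, and 2 lysosomal genes and 5 V-ATPase subunits were lower. The ubiquitous d1 subunit gene *Atp6v0d1*, the relative of *Atp6v0d2*, was at 349 TPM on average in explants and 392 in irises. Within the osteoclast list, *Calcr*, the calcitonin receptor, and *Siglec15* were at 0 in all explants and irises. *Oscar* and *Mmp9* were at 0.493 ± 0.819 and 0.476 ± 0.506 TPM (SD, n = 5) in explants. Other genes of the list were present. *Car2*, *Tcirg1* and *Clcn7* were at 50.6, 46.5 and 83.7 TPM on average in explants and 55.9, 47.3 and 87.5 in irises. *Nfatc1*, *Tnfrsf11a*, *Ocstamp* and *Itgb3* were at 5, 2.28, 1.36 and 0.998 TPM on average in explants and 3.35, 1.68, 0.737 and 0.487 in irises. *Mitf*, the MiT factor of melanocytes and osteoclasts, was at 170 ± 39.2 TPM (SD, n = 5) in explants, 207 ± 6.92 (SD, n = 3) in irises and 4.49 ± 0.938 (SD, n = 3) in livers.

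**Figure D3:**
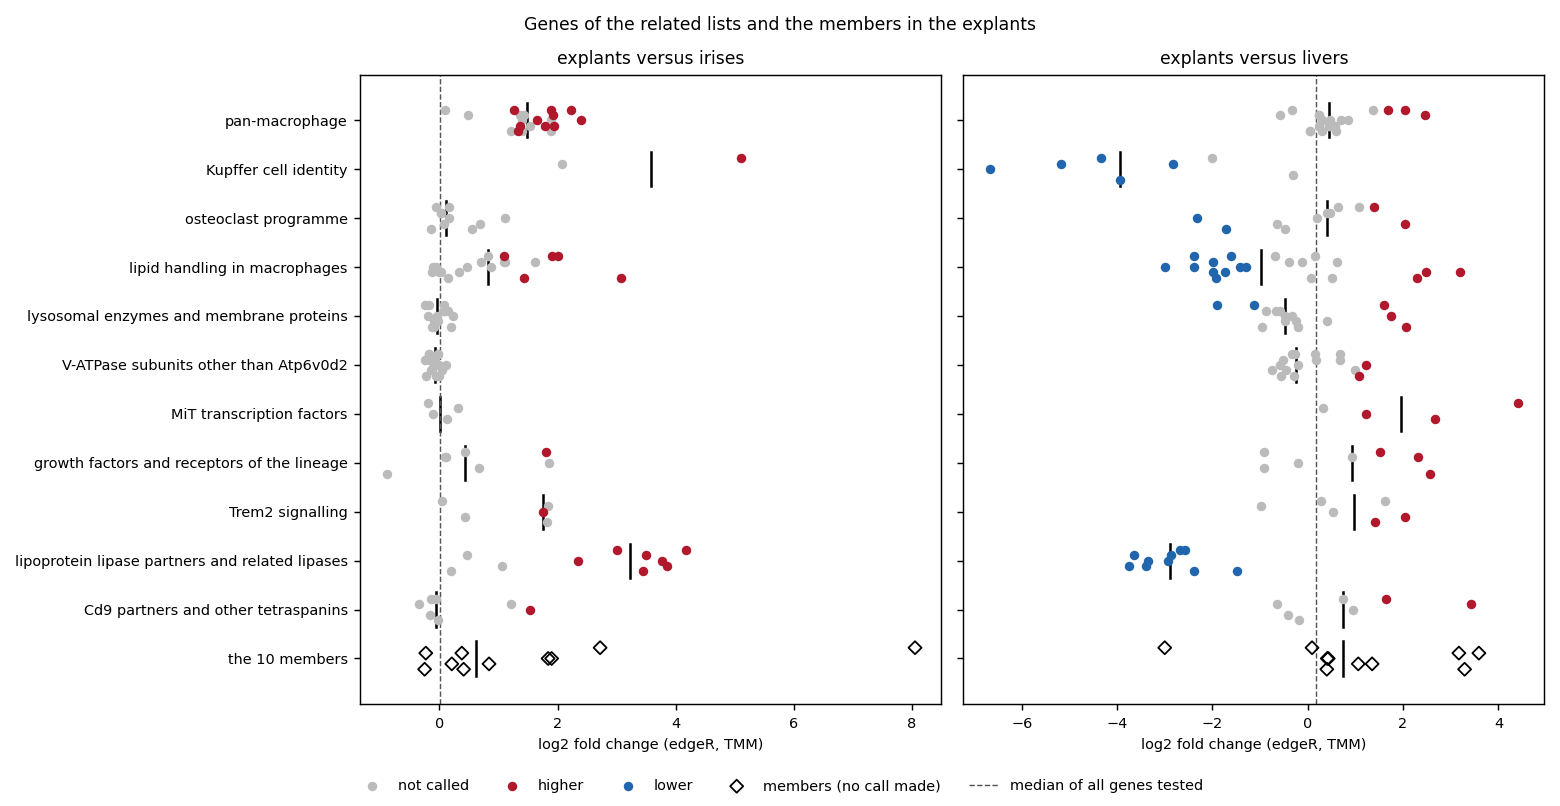
Log2 fold change (horizontal axis, edgeR with TMM scaling) of every tested gene in the 11 related lists (vertical axis), explants against irises on the left and explants against livers on the right. Red and blue points were called higher and lower, grey points were not called, open diamonds are the 10 genes of the set, for which no call was made, black ticks are list medians and the dashed line is the median of all genes tested. Macrophage and lipase lists lie to the right against irises, and Kupffer cell and lipase lists lie to the left against livers.

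Against livers, 23 of 123 related genes were called higher in explants (18.7%) and 29 lower (23.6%), where 28.9% and 19.7% of all 16506 genes were called. Scaled by library size alone, the related genes split into 40 higher and 22 lower and all genes into 43% and 10.4%, because that scaling moved the median of all genes by 0.63 on the log2 scale. Of the 7 Kupffer cell markers 5 fell, with *Clec4f*, a lectin found on Kupffer cells alone, at 0.173 to 3.93 TPM in explants, 31.3 to 123 in livers and 77.2 to 110 in the in vitro spheroids (log2 fold change against livers -6.67, SE 0.66, edgeR adjusted p = 1.3e-05). *Vsig4* fell by 2.83 (SE 0.92, edgeR adjusted p = 0.0193). All 8 hepatocyte markers were called lower in the same comparison, with a median log2 fold change of -2.41, and the mean iris share of the explants was 72.4%. The part of the iris share in the fall of the Kupffer cell markers was not tested. Of 20 pan-macrophage markers 3 rose (*Fcgr1*, *Itgam* and *Cd14*) and none fell in edgeR. At an unadjusted p under 0.05 in edgeR, 4 were higher and 0 lower. DESeq2 called 4 higher, limma-voom 2 and edgeR with library size alone 7, with 0 lower in each. *Lgals3* (2.30, SE 0.31, edgeR adjusted p = 9.4e-05), *Soat1* (3.20, SE 0.26, adjusted p = 4e-06) and *Axl* (2.49, SE 0.21, adjusted p = 4.5e-06) were higher than in livers. *Lgals3* encodes a galectin, and the products of *Soat1* and *Axl* act in cholesterol esterification and uptake of dead cells. These genes stood in explants at 317, 55.8 and 173 TPM on average, against 272, 61.9 and 181 in irises. *Apoe*, *Plin2*, *Pparg* and *Fabp4* were among the 10 genes of lipid handling called lower.

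The fitted log2 fold changes of the 10 genes, against irises and against livers, are given side by side, and both share the 5 explants. They were 8.05 and 0.09 for *Atp6v0d2*, 1.84 and 0.43 for *Trem2*, 1.90 and 0.41 for *Itgax*, and 0.84 and 1.06 for *Cd68*. They were 0.41 and 0.40 for *Cd9*, 0.38 and 3.59 for *Dcstamp*, 0.21 and 1.35 for *Lpl*, -0.23 and 3.17 for *Gpnmb*, and -0.25 and 3.29 for *Ctsk*. They were 2.72 and -3.00 for *Acp5*. The fitted values of *Atp6v0d2* against irises and of *Dcstamp* against livers rest on 2 and 3 reads in the lower group. The median over the 10 genes was 0.63 against irises, beside 0.01 for all genes, and 0.75 against livers, beside 0.17. Without liver 1 the latter median was 2.01, and the value of *Atp6v0d2* was 1.59, that of *Itgax* 3.71, that of *Lpl* 2.43 and that of *Trem2* 1.32.

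The iris share can be taken out of each explant, as the authors did, by subtracting that share of the mean iris level and rescaling the rest. This takes the iris around a graft to be like a naïve iris, which cannot be checked in these samples. The deposited column of explant 4 was made with the share itself subtracted from the iris mean, so explant 4 was recalculated here by the formula of the methods. On this scale *Atp6v0d2* was at 131, 112, 273, 119 and 173 TPM in explants 1, 2, 4, 5 and 6, above all livers and above both in vitro spheroids. *Trem2* was at 50.6, 76.3, 25.1, 62.4 and 85 TPM and *Cd68* at 302, 470, 137, 326 and 487, also above all livers and spheroids in each explant. *Dcstamp* (12.6 ± 5.29, SD, n = 5) and *Lpl* (182 ± 72.1, SD, n = 5) stood likewise. The share of all genes above livers and spheroids on this scale is not given.

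*Gpnmb* came to 504, 195, 92.8, 0 and 320 TPM and *Ctsk* to 0, 61.7, 93.3, 48.8 and 45.8, with the value of 1 explant set to 0 for each because the iris share exceeded its level. *Acp5* came to 168, 276, 227, 225 and 338 TPM, below every liver, and overlapped the in vitro spheroids. *Cd9* came to 297 ± 45.4 TPM (SD, n = 5), above all livers (88.8 ± 31.8, SD, n = 3), while no explant lay above both spheroids and 2 lay below both. *Itgax* came to 21.9, 29.9, 2.04, 13.6 and 15.9 TPM, above both spheroids in each explant and above all livers in each but explant 4. The median log2 ratio of explants to livers over the 10 genes, as log2(TPM + 1) of the group means, was 2.46, and it was 3.16 without liver 1 and 1.51 before subtraction. These values use TPM without TMM scaling, and no median of all genes on this scale is given. With TMM scaling the median of the 10 genes before subtraction was 0.75, beside 0.17 for all genes.

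Put the other way, the level of each explant was compared with the mix of irises and livers that its iris share implies. This comparison rests on the same levels and iris shares as the subtraction, so it is not a second line of support. The share of all genes above the mix is not given. The measured level of *Atp6v0d2* was 4.6 to 11.1 times that of the mix, *Trem2* 1.37 to 4.65 times, *Cd68* 1.16 to 3.04 times, *Dcstamp* 1.41 to 1.91 times, *Cd9* 1.17 to 1.76 times and *Lpl* 1.24 to 1.55 times, and each of these was above the mix in all 5 explants. *Itgax* was at 0.931 to 5.19 times the mix and below it in explant 4. *Gpnmb* was at 0.969 to 1.24 times and *Ctsk* at 0.987 to 1.12 times the mix, and *Acp5* at 0.518 to 0.89 times. With in vitro spheroids in place of livers, *Atp6v0d2* was at 6.86 to 16.4 times, *Trem2* at 1.24 to 3.84 times and *Cd68* at 1.05 to 2.39 times the mix, while *Cd9* was at 0.848 to 0.933 times and so below it in every explant.

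**Figure D4:**
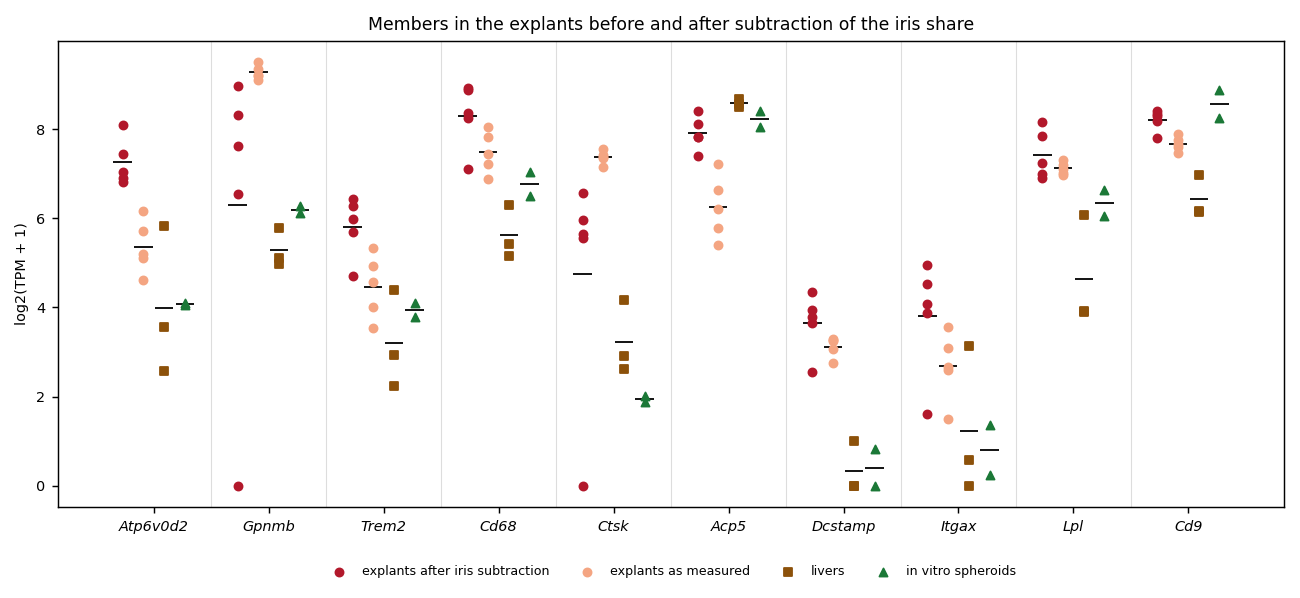
Level of each of the 10 genes, as log2(TPM + 1) on the vertical axis, in the 5 explants after (dark red) and before (light red) subtraction of the iris share, in 3 livers (brown squares) and in 2 in vitro spheroids (green triangles). Short bars are means of the log values. *Atp6v0d2*, *Trem2*, *Cd68*, *Dcstamp* and *Lpl* lie above livers and spheroids in every explant after subtraction, 1 explant is at 0 for *Gpnmb* and 1 for *Ctsk*, and *Acp5* lies below the livers. The share of all genes that lie above both groups after subtraction is not given, so this is a description.

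The 10 genes themselves were also tested between the groups without explants. Results of these data were known when the genes were chosen, so their p-values here and below are no independent evidence. Between hepatocyte preparations and the livers they represent, 8 of the 10 passed the filter, and edgeR called none, where it called 0.409% of all 12236 genes higher and 2.31% lower. At an unadjusted p under 0.05, 3 were lower in the preparations. *Cd68* was lower in 3 of 3 preparations by a log2 fold change of -1.43 (SE 0.33, edgeR adjusted p = 0.0519), *Trem2* in 3 of 3 by -2.81 (SE 0.65, adjusted p = 0.0545), and *Atp6v0d2* below all livers in 1 of 3 by -1.97 (SE 0.80, adjusted p = 0.17). Without liver 1 the log2 fold change was -0.44 for *Atp6v0d2* (edgeR adjusted p = 0.583), -1.90 for *Trem2* (adjusted p = 0.0764) and -1.05 for *Cd68* (adjusted p = 0.0911). DESeq2 called these 3 and limma-voom none, where they called 4.33% and 0.0899% of all genes lower. Of 17 pan-macrophage markers tested, 6 were called lower in the preparations by edgeR, 12 by DESeq2 and 0 by limma-voom, and none was called higher by these tools or was higher at an unadjusted p under 0.05. Markers of other cells were called lower too, with 4 of 7 for fibroblasts in edgeR (7 in DESeq2 and 0 in limma-voom), 1 of 5 for endothelial cells and 1 of 1 for B cells, and their part was not tested. *Acp5* differed by 0.12 (SE 0.12, adjusted p = 0.571).

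Between in vitro spheroids and hepatocyte preparations, 7 of the 10 passed the filter and 4 were called higher and 0 lower, where 8.13% of all 12247 genes were called higher and 9.11% lower. *Trem2* rose by 3.14 (SE 0.33, edgeR adjusted p = 9.7e-04), *Cd68* by 2.33 (SE 0.23, adjusted p = 8.1e-04), *Cd9* by 1.90 (SE 0.21, adjusted p = 0.00104) and *Atp6v0d2* by 1.22 (SE 0.32, adjusted p = 0.0274), each in 2 of 2 spheroid samples. The call of *Atp6v0d2* was lost without preparation 1 or 3 or either spheroid sample, at edgeR adjusted p-values of 0.0675, 0.0836, 0.0704 and 0.102. Without a spheroid sample the other is alone in its group and is assumed to vary like the preparations. The call was also lost with technical library a alone (0.0911), with the replicate block (0.0831) and in the fit of all 5 groups (0.268), and so in 7 of the 13 other settings. *Gpnmb* (0.74, SE 0.18, adjusted p = 0.0229) and *Acp5* (-0.66, SE 0.17, adjusted p = 0.0288) passed the p threshold but not the limit on fold change, and *Lpl* (0.73, SE 0.64, adjusted p = 0.44) did not pass. *Ctsk*, *Dcstamp* and *Itgax* had too few reads to be tested.

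Related genes moved in the same comparison. Of 108 tested, 23 were called higher in the in vitro spheroids and 4 lower, and without spheroid sample 1 the counts were 14 and 5, with the lone spheroid sample again assumed to vary like the preparations. The macrophage elastase gene *Mmp12* rose by 5.45 (SE 0.37, edgeR adjusted p = 1.5e-04), *Lgals3* by 3.81 (SE 0.25, adjusted p = 1.4e-04) and *Fabp4*, a fatty acid binding protein of adipocytes and macrophages, by 2.92 (SE 0.50, adjusted p = 0.00588). The Kupffer cell genes *Vsig4* (1.87, SE 0.29, adjusted p = 0.00371) and *Cd5l* (1.66, SE 0.23, adjusted p = 0.00263) rose, as did 8 of 18 pan-macrophage markers, among them *Cd14*, the endotoxin co-receptor (3.84, SE 0.52, adjusted p = 0.00229). Scaling by library size alone moved the median of all genes by 0.26 on the log2 scale here, and the called directions of the 10 genes did not change with it.

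Between irises and livers, 9 of the 10 passed the filter. *Gpnmb* (3.43, SE 0.18, edgeR adjusted p = 3.5e-07), *Ctsk* (3.57, SE 0.29, adjusted p = 6.1e-06) and *Dcstamp* were called higher in irises, and *Acp5* (-5.68, SE 0.14, adjusted p = 6.1e-09), *Atp6v0d2* and *Trem2* (-1.37, SE 0.51, adjusted p = 0.0356) were called lower, where 29.8% and 22.1% of all 15459 genes were called. The ratio of pooled CPM was 16 for *Dcstamp* (95% interval 5.24 to 79.9, irises to livers, adjusted p = 0.00662) and 182 for *Atp6v0d2* (50 to 1513, livers to irises, adjusted p = 4.1e-04), and both intervals cover counting error only. The call of *Trem2* rested on liver 1, without which its log2 fold change was -0.50 (adjusted p = 0.162), and it was also lost without each iris in turn, with limma-voom and under scaling by library size alone, which moved the median of all genes by 0.68. All irises were above all livers in TPM for *Cd68*, *Cd9* and *Lpl*, but on the TMM scale of the test *Cd68* (0.25, SE 0.24, edgeR adjusted p = 0.361), *Cd9* (0.03, SE 0.19, adjusted p = 0.901) and *Lpl* (1.17, SE 0.50, adjusted p = 0.0601) were not called. Without liver 1 *Lpl* was called at 2.23 (adjusted p = 5.4e-08). The fold changes of irises against livers and those of explants against livers share the livers.

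Over the 16 samples the genes outside the set whose pattern lay nearest to its mean pattern were *Apobec3*, *Fam111a*, *Arhgap19*, *Evi2*, *Exoc3l4*, *Lyz2*, *Nrros*, *Adamts4*, Gm26778 and ENSMUSG00000107260, where distance is the root mean square difference of centred log2(TPM + 1) values. It was 0.197 for *Apobec3*, an antiviral cytidine deaminase, 0.358 for *Lyz2* and 0.385 for the last pair, which hold the same values and appear to share their reads. These genes were the nearest of 14601, whose median distance was 0.909. The distance of a member of the set from the mean of all 10 was 0.480 for *Cd68*, 0.585 for *Itgax*, 0.629 for *Trem2*, 0.732 for *Cd9*, 0.752 for *Lpl*, 0.845 for *Dcstamp*, 1.319 for *Gpnmb*, 1.684 for *Atp6v0d2*, 1.851 for *Ctsk* and 2.448 for *Acp5*.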

How the data were processed

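RNA of 16 samples, each in 3 technical libraries, was sequenced by Smart-seq3. Per the file headers and the methods, the authors aligned reads to mm10 with TopHat2, removed duplicates with SAMtools and UMI-tools, and counted reads per gene with featureCounts without regard to strand, giving a read that overlaps several genes to each. The deposited counts, summed by the authors over the technical libraries, were tested here. The deposited TPM values were used for levels. The authors also deposited a TPM table in which explant columns had the iris contribution subtracted, treated here as a score because its columns no longer sum to the same total. Both tables together gave the share of iris RNA per explant, and all genes of a column matched the respective formula to 0.01. Explant 4 was recalculated.

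Tests used R 4.3.3 with edgeR 4.0.16 (quasi-likelihood, TMM, filterByExpr, 2 groups per fit), limma 3.58.1 and DESeq2 1.42.0, with Benjamini-Hochberg adjustment over all genes tested and calls where adjusted p was below 0.05 and log2 fold change beyond 1 either way. Summaries used Python 3.11.15, pandas 2.3.3, numpy 2.4.6, scipy 1.17.1 and matplotlib 3.10.9. The fit was tested on simulated data. Members and gene lists were chosen with earlier results of these data known. Named genes were the 10 members, any gene of a fixed list, and the 10 genes with a mean of at least 5 TPM in explants that lay nearest to the mean pattern. Promoter letters were fixed as 4 motifs. Ratios with intervals were computed on pooled counts. The total count per sample, 2718518 to 6789648, sets the precision, and intervals cover counting error only. The methods speak of animals as the units of the RNA-seq, but the labels tie no sample to an animal, so p-values measure only the spread between these samples, which may be technical. Same-numbered samples did not deviate together. ERCC spike-in rows, 92 with 418 counts in all, were left out. The alternatives were DESeq2, limma-voom, other scalings, no filter, a fit of all groups, 1 technical library, a replicate block, and leaving out each sample. A gene of the lipase list is counted in the totals but not reported here.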

Additional observations from a re-analysis of the deposited data

How the results depend on the processing

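With 26 related genes called higher in explants than in irises, limma-voom called 7, and leaving out each sample gave 6 to 34 (6, 9 and 7 without iris 1, 2 or 3, and 16 without explant 2). The share of all genes called higher, 6.16%, was 3.23% with limma-voom and 3.21% to 7.21% without each sample. Against livers the count of 23 became 40 with library size alone and 19 to 29 without each sample. There the share of all genes, 28.9%, became 43% and 26.8% to 29.6%. The median log2 fold change of the 10 genes against livers, 0.75, was 1.36 with limma-voom, 1.35 with library size alone, and 0.56 to 2.01 without each sample, with the highest value without liver 1. The median log2 ratio after iris subtraction, on the TPM scale without TMM, was 2.46. It was 1.51 with TPM before correction and 2.11 to 3.16 without each sample. The count of the 10 genes called between hepatocyte preparations and livers was 0, and stayed at 0 without each sample. It was 3 with DESeq2, 2 with library size alone, 4 with no filter and 2 with all 5 groups in a single fit. The share of all genes called lower, 2.31%, became 4.33%, 3.38%, 3.95% and 5.41% in these settings, in that order. It was 0.0313% to 2.66% without each sample. The share called higher, 0.409%, became 0.956%, 0.351%, 0.744% and 1.27%. Of 123 alternative values of these summaries, 107 were classed as the same as the main value and 16 as moved. A moved value need not change direction: the medians of 1.36, 1.35 and 2.01 against livers were classed as moved and kept their sign. The cause was not tested.

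Same-numbered samples share only a number, with correlations of their deviations from -0.133 to 0.135. With the replicate block, related genes called higher were 29 against irises (median of the 10 genes 0.57) and 18 against livers (median 0.96), where 4.9% and 21.5% of all genes were called higher. The 10 genes had 1 call in hepatocyte preparations, 3 in in vitro spheroids (*Atp6v0d2* at an edgeR adjusted p of 0.0831) and 6 in irises against livers. Of all genes, 0.507% were called higher and 2.83% lower in hepatocyte preparations. The shares were 7.28% and 8.92% in in vitro spheroids, and 29.8% and 21.8% in irises against livers. Under this block *Atp6v0d2* against livers turned to -0.27, *Trem2* to -0.02, and *Gpnmb* in hepatocyte preparations to 0.00.

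Other small values also turned sign. Without each sample, the values against livers reached 1.59 for *Atp6v0d2* and 3.71 for *Itgax* in explants, 1.58 for *Lpl* and 0.31 for *Cd9* in hepatocyte preparations, and 0.28 for *Cd9* in irises, each without liver 1. In explants against livers *Atp6v0d2* was -0.23 without explant 6 and -0.38 and -0.25 without liver 2 or 3, and *Itgax* was -0.16 and -0.09 without liver 2 or 3. In hepatocyte preparations *Gpnmb* was 0.03 in the fit of all 5 groups, 0.22 without liver 1 and 0.05 without preparation 2, *Lpl* was -0.41 without preparation 2, and *Cd9* was -0.09 with library size alone, -0.16 with technical library a, -0.10 and -0.11 without liver 2 or 3 and -0.13 without preparation 1. In irises *Cd9* was -0.01 without iris 2 and -0.11 and -0.12 without liver 2 or 3. The cause was not tested.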
